A study of Mus musculus with 2 samples.

Results

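A group of 10 immediate early genes of the AP-1 and Egr kinds was followed across the myeloid cells of the mouse cerebral cortex. The genes were Fos, Fosb, Fosl2, Jun, Junb, Jund, Atf3, Egr1, Ier2 and Btg2, taken by symbol from the gene list of the deposited matrices, where each of the 10 matched 1 of 55357 genes. The study asked how loss of moesin, the product of Msn, alters microglia of the cortex. It comprised 1 single-cell RNA library from Msn knockout mice and 1 from wild-type mice, each pooled over 5 to 6 animals aged 8 weeks and sorted for CD45 and CD11b after papain digestion at room temperature for 30 min. The knockout mice were on C57BL/6, per the series text, whereas no strain for the wild-type mice, no sex and no description of the Msn deletion was given in the sources used here. Because a genotype was 1 pool and 1 library, there is no replicate check, genotype and library cannot be told apart, and no difference between them was tested.

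Immediate early genes are transcribed within minutes of a stimulus from factors already present in the cell, and their RNAs are short-lived. Proteins of the Fos, Jun and Atf families pair through leucine zippers into AP-1, which binds DNA at the promoters and enhancers of response genes, while Egr1 binds GC-rich sites through zinc fingers. In microglia these RNAs are known both as marks of activation and as RNAs that enzymatic dissociation of brain tissue can induce. No library prepared without digestion was analysed here, so levels before dissociation were not measured.

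The promoters of 4 of these genes are shown because their RNA levels differed in opposite directions between the libraries, with Fos, Junb and Ier2 higher and Btg2 lower in knockout microglia. The sequences were read from GRCm39 just upstream of the canonical transcript start in GENCODE. Capitals mark matches to the full cyclic AMP response element TGACGTCA, its 5-base part TGACG, the Egr site GCGNGGGCG, the TATA box TATAAA or the CCAAT box CCAAT, on either strand.
Fos (chr12:85520448-85520657, plus strand): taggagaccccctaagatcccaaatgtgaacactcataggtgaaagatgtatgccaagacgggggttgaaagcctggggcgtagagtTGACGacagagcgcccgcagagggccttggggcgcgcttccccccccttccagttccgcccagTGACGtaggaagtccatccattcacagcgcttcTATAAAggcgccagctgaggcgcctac
Junb (chr8:85705360-85705557, minus strand): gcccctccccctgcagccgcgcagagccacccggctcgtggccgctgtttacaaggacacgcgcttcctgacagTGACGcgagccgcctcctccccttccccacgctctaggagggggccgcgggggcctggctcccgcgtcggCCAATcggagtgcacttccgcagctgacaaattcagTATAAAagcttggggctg
Ier2 (chr8:85389484-85389693, minus strand): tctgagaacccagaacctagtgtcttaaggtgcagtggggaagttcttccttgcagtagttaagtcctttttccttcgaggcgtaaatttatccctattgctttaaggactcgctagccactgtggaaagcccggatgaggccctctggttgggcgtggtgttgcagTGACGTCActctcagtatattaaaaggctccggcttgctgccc
Btg2 (chr1:134006859-134007068, minus strand): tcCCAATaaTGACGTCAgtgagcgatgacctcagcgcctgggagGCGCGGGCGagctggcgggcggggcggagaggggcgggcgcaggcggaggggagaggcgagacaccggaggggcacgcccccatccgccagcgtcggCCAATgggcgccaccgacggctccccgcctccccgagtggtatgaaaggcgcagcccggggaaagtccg
The Junb sequence ends before the first base of a longer annotated Junb transcript, and the Btg2 sequence lies in introns of longer annotated Btg2 transcripts. The full element began 43 bases before the start in Ier2 and 201 bases before it in Btg2. Its 5-base part, which every full element contains, began 123 and 60 bases before the start in Fos and 136 bases before it in Junb. Over windows from 250 bases before to 50 bases after the start, the full element was found in Jund, Ier2 and Btg2, against 2.45% of 21757 protein-coding promoters. TGACG alone was found in 8 of the 10 genes (22.6% of promoters), the Egr site in Fosb, Jund and Btg2 (6.22%) and TATAAA in Fos and Junb (13.2%). CCAAT was found in Jun, Junb, Jund, Atf3 and Btg2 (39.9%). The AP-1 site TGANTCA (7.15%) and the CArG box (1.54%), the site of serum response factor, had no match in the 10 windows, which says only that these letters are not there. A match of letters is a description of the sequence and does not show that a factor was bound.

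The 2 libraries held 9038 knockout and 5842 wild-type barcodes with 67575835 and 68576464 UMIs (unique molecular identifiers, each standing for 1 captured RNA molecule), at medians of 4816 and 6706 UMIs per barcode. Microglia were taken as cells with a UMI of both P2ry12 and Tmem119, monocytes as cells with Ace or Ly6c2, and border macrophages, the macrophages of meninges and perivascular spaces, as cells with Mrc1 and Pf4. This gave 4004 knockout and 4462 wild-type microglia, 646 and 52 monocytes, and 129 and 24 border macrophages. Msn itself stood at 20.4 CPM (a gene's UMIs scaled to a common total of UMIs for each class and library) in knockout and 318 CPM in wild-type microglia. Cells meeting more than 1 gate, 1232 knockout and 303 wild-type cells, were left out of the classes, and 13 barcodes occurred in both libraries. In knockout and wild-type microglia, the 10 microglial markers summed to 23475 and 24266 CPM, the 6 border macrophage markers to 56.3 and 30.4 CPM and the 6 classical monocyte markers to 34.5 and 12.7 CPM. These sums include the genes of the gates, so the gating fixes them in part. Ly6c2, for one, has no UMI in microglia because a cell with it was left out. The 4 erythroid markers summed to 594 CPM in knockout and 115 CPM in wild-type microglia, and the median mitochondrially encoded share per barcode was 0.557% in the knockout and 1.45% in the wild-type library. The part of such RNA and of RNA quality in the results below was not tested.

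The 10 genes made up 4.79% of the UMIs of knockout microglia and 4.10% of those of wild-type microglia. Fos, Junb, Ier2 and Atf3 were higher in the knockout library and Btg2 was lower, while Fosb, Fosl2, Jun, Jund and Egr1 lay within 1.5-fold. A gene was called by size alone, when its log2 ratio of knockout over wild-type differed by 1.5-fold or more from the median ratio of all measured genes, which was -0.28 in microglia. By that rule 4 of the 10 were higher and 1 lower, against 14.2% and 12.4% of 8715 measured genes. On the CPM scale as it stands 3 were higher and 2 lower, against 4.28% and 29.7%. Intervals below are exact 95% intervals that cover counting error only.

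Of the 3 Fos family genes, whose proteins need a partner such as Jun to bind DNA, Fos was higher while Fosb and Fosl2 lay within 1.5-fold. Fos (chromosome 12, 85520658 to 85524047, plus strand) had 12489.5 CPM in knockout and 7347 CPM in wild-type microglia, a relative log2 ratio of 1.05 (1.04 to 1.06). Fosb (chromosome 7, 19036621 to 19043976, minus strand), a close relative of Fos, had 2060.2 CPM in knockout and 2576 CPM in wild-type microglia. Its relative log2 ratio was -0.04 (-0.05 to -0.02) in the same cells. Fosl2 (chromosome 5, 32292707 to 32315186, plus strand), which encodes the Fos-related protein Fra-2, was scarce, with 373 UMIs or 13.9 CPM in knockout and 803 UMIs or 17.7 CPM in wild-type microglia. Its relative log2 ratio of -0.06 (-0.24 to 0.12) had an interval that spans 0.

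Of the 3 Jun genes, whose proteins pair with Fos proteins or with each other, Junb was higher while Jun and Jund lay within 1.5-fold. Junb (chromosome 8, 85701113 to 85705359, minus strand) had 4662 CPM in knockout and 2562 CPM in wild-type microglia, a relative log2 ratio of 1.15 (1.14 to 1.16). Jun (chromosome 4, 94937271 to 94940459, minus strand) had 12879 CPM in knockout and 11410.2 CPM in wild-type microglia, a ratio of 0.46. It reached 0.59, past the rule, with median-of-ratios scaling and with no floor, which are the same calculation here. Jund (chromosome 8, 71151599 to 71153265, plus strand), the member of the family known for a steadier level, had 4060.3 CPM in knockout and 3720.5 CPM in wild-type microglia, a ratio of 0.41. These 3 genes consist of 1 exon each in their canonical transcripts. Junb overlaps Prdx2 on the opposite strand, and whether the counting used strand is not stated. Prdx2 had 10559 UMIs in the knockout and 7375 in the wild-type library, against 298823 and 177813 of Junb. The antisense genes Junos and Gm11175, at Jun and Jund, had at most 613 UMIs in a library.

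The remaining 4 genes divided in direction. Atf3 (chromosome 1, 190902493 to 190950241, minus strand), a stress-induced AP-1 partner that often represses inflammatory genes, had 5206 CPM in knockout and 3487 CPM in wild-type microglia, a relative log2 ratio of 0.86 (0.85 to 0.87). Its ratio on the CPM scale as it stands was 0.58, just within the rule. Ier2 (chromosome 8, 85387960 to 85389483, minus strand), an immediate early nuclear protein, had 1043 CPM in knockout and 604 CPM in wild-type microglia, a ratio of 1.07 (1.05 to 1.10).
Egr1, a zinc finger factor, and Btg2 had fewer CPM in the knockout library. Egr1 (chromosome 18, 34992876 to 34998049, plus strand) had 3361 CPM in knockout and 5108 CPM in wild-type microglia. Its relative log2 ratio of -0.32 (-0.33 to -0.31) lay within the rule, while -0.60 on the CPM scale as it stands lay past it. Btg2 (chromosome 1, 134002908 to 134015033, minus strand), an antiproliferative protein that recruits the CCR4-NOT deadenylase to mRNA, had 2142 CPM in knockout and 4186 CPM in wild-type microglia, a ratio of -0.68 (-0.70 to -0.67). With median-of-ratios scaling, which here is relative to all genes with a UMI in each library, it was -0.55 and no longer past the rule.

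**Figure D1:**
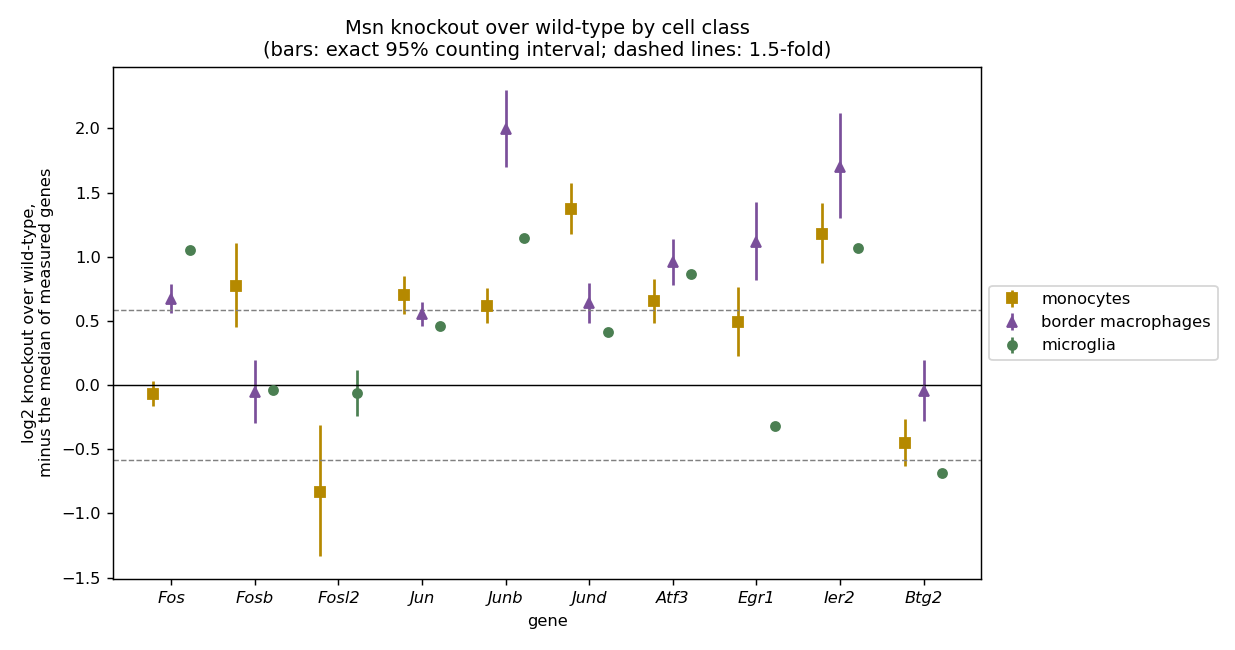
Log2 ratio of knockout over wild-type for each gene, minus the median of measured genes, in monocytes (squares), border macrophages (triangles) and microglia (circles), with exact 95% counting intervals; dashed lines mark 1.5-fold. In microglia Junb at 1.15, Ier2 at 1.07 and Fos at 1.05 lie highest and Btg2 at -0.68 lowest, and Egr1 is below 0 in microglia but above 0 in the other classes.

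Cells of like depth gave the same picture for most of these genes. Microglia were divided into 5 bands of total UMIs, the lowest from 500 to below 2000 with 341 knockout and 136 wild-type cells and the highest from 16000 with 218 and 745 cells. Junb (relative log2 0.86 to 1.21) and Ier2 (0.95 to 1.12) were higher by the rule in 5 of 5 bands, and Btg2 was lower in 5 of 5 (-0.76 to -0.59). Fos (0.50 to 1.18) and Atf3 (0.27 to 1.01) were higher in 4 of 5, and the exception was the lowest band for both. Jun (0.22 to 0.55) and Jund (0.33 to 0.56) stayed within the rule in each band but above 0. Egr1 ran from -0.43 in the deepest cells to 0.02 in cells of 2000 to below 4000 UMIs. Fosb ran from -0.07 to 0.28, within the rule in each band and above 0 in 3 of 5. The share of UMIs from the 10 genes was larger in the knockout library in each band, at 3.89 to 4.92% of UMIs in knockout and 3.07 to 4.28% in wild-type microglia.

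**Figure D2:**
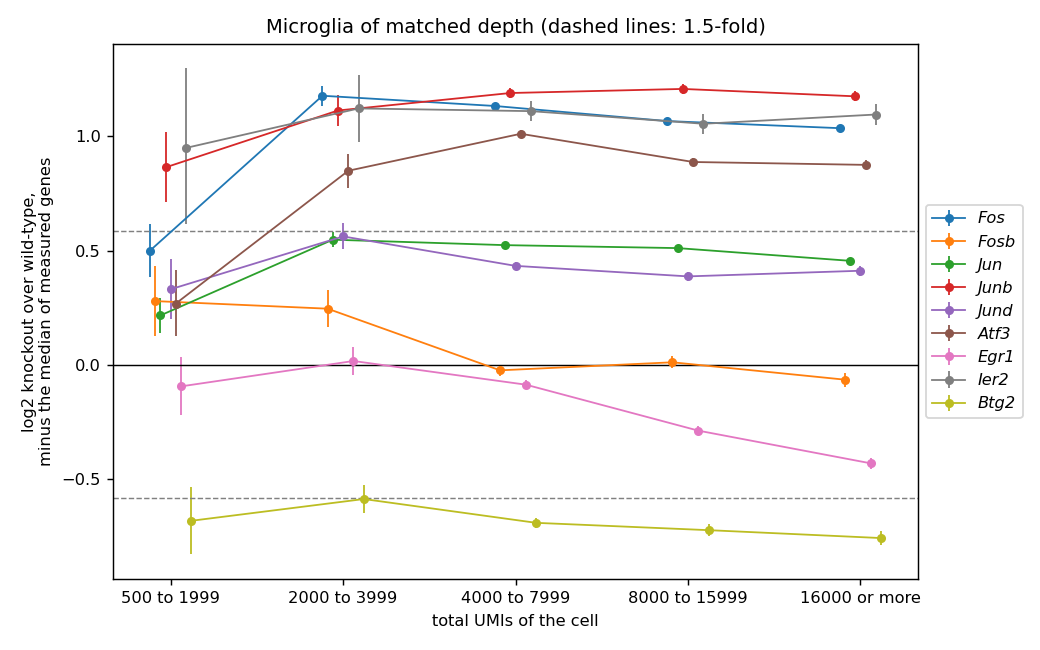
Log2 ratio of knockout over wild-type in microglia, minus the median of measured genes, in 5 bands of total UMIs per cell, with exact 95% counting intervals; Fosl2, with too few UMIs per band, is not drawn. Junb and Ier2 stay above the upper 1.5-fold line and Btg2 below the lower one in 5 of 5 bands.

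Nearly every microglial cell carried RNA of most of these genes. With each cell thinned to 2000 UMIs, 3663 knockout and 4326 wild-type microglia remained, with 341 and 136 shallower cells left out. A median of 9 of the 10 genes had a UMI per cell in both libraries, and 99.4% of knockout and 99.7% of wild-type microglia had at least 5. Fos was found in 99.2% of knockout and 98.7% of wild-type microglia (99.3% and 99.4% without thinning), which is near the most a share can be and so tells nothing of how the difference is spread over cells. The mean of its thinned UMIs per cell was 24.6 in knockout and 14.1 in wild-type microglia. Ier2 was found in 75.0% (73.6 to 76.4) of knockout and 60.4% (58.9 to 61.8) of wild-type microglia, with 88.2% and 87.2% before thinning at median depths of 5363 and 6552.5 UMIs. Btg2 was found in 93.7% of knockout and 98.7% of wild-type microglia, and Fosl2 in 2.59% and 3.49%. The summed UMIs of the 10 genes were spread evenly, in that the 10% of cells with the most held 16.0% of them in knockout and 15.4% in wild-type microglia. The 90th over the 10th percentile of their summed CPM per cell was 2.69 in knockout and 2.42 in wild-type microglia.

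Monocytes held a smaller share of this RNA than microglia of the same library. The 10 genes made up 0.986% of UMIs in knockout monocytes and 0.805% in wild-type monocytes, against 4.79% and 4.10% in the microglia beside them. Measured against the median gene, 8 of the 10 were lower in monocytes, Fosl2 was higher and Ier2 lay within 1.5-fold, and this held in each library. The background was 29.8% lower and 30.7% higher of 8467 genes in the knockout library, and 33.2% lower and 31.8% higher of 9290 genes in the wild-type library. On the CPM scale as it stands 8 were also lower and 1 higher in each library, against 42.3% and 22.1% of genes in the knockout and 44.6% and 21.2% in the wild-type library. Jun had 1445 CPM in monocytes and 12879 CPM in microglia of the knockout library, 8.91-fold lower, and 1012 against 11410.2 CPM in the wild-type library, 11.3-fold lower. Egr1 had 413 CPM in monocytes and 3361 CPM in microglia of the knockout library (8.14-fold lower), and 335 against 5108 CPM in the wild-type library (15.3-fold lower). Fos was 5.78-fold lower in knockout and 2.85-fold lower in wild-type monocytes than in the microglia beside them.
Fosl2 went the other way, with 53.2 CPM in monocytes and 13.9 CPM in microglia of the knockout library, and 108 against 17.7 CPM in the wild-type library. Ier2 was close between the classes, at 861 CPM in monocytes and 1043 CPM in microglia of the knockout library, and 432 against 604 CPM in the wild-type library.

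No class of these libraries is known to lack the 10 genes, so RNA of microglia carried into monocytes was read from 6 microglial markers that the gates did not use. In monocytes these markers stood at 2.92 to 7.48% of their microglial level in the knockout library (median 3.55%) and at a median of 4.35% in the wild-type library. The 10 genes stood at a median of 21.9% of their microglial level in knockout and 20.5% in wild-type monocytes. The lowest were Jun, at 11.2% in the knockout library, and Egr1, at 6.55% in the wild-type library, where the marker P2ry13 reached 6.72%. The Egr1 level of wild-type monocytes thus lay within the range of these markers, above their median, and the part of carried RNA in it was not tested. In cells thinned to 2000 UMIs, Fosb was found in 42.4% (38.4 to 46.4) of knockout monocytes and 26% (14.6 to 40.3) of wild-type monocytes, against 1.99 to 11.3% of knockout and 4 to 16% of wild-type monocytes for the 6 markers. The highest marker in wild-type monocytes was Gpr34, at 16% (7.17 to 29.1), an interval that overlaps that of Fosb. Without thinning, Fosb was found in 73.7% of knockout and 61.5% of wild-type monocytes, and the highest marker in 25.7% of knockout (Olfml3) and 38.5% of wild-type monocytes (Gpr34), at median depths of 5187.5 and 7252 UMIs. Egr1 was found in 53.5% of knockout and 40% (26.4 to 54.8) of wild-type monocytes after thinning, and in 84.7% and 82.7% without it.

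**Figure D3:**
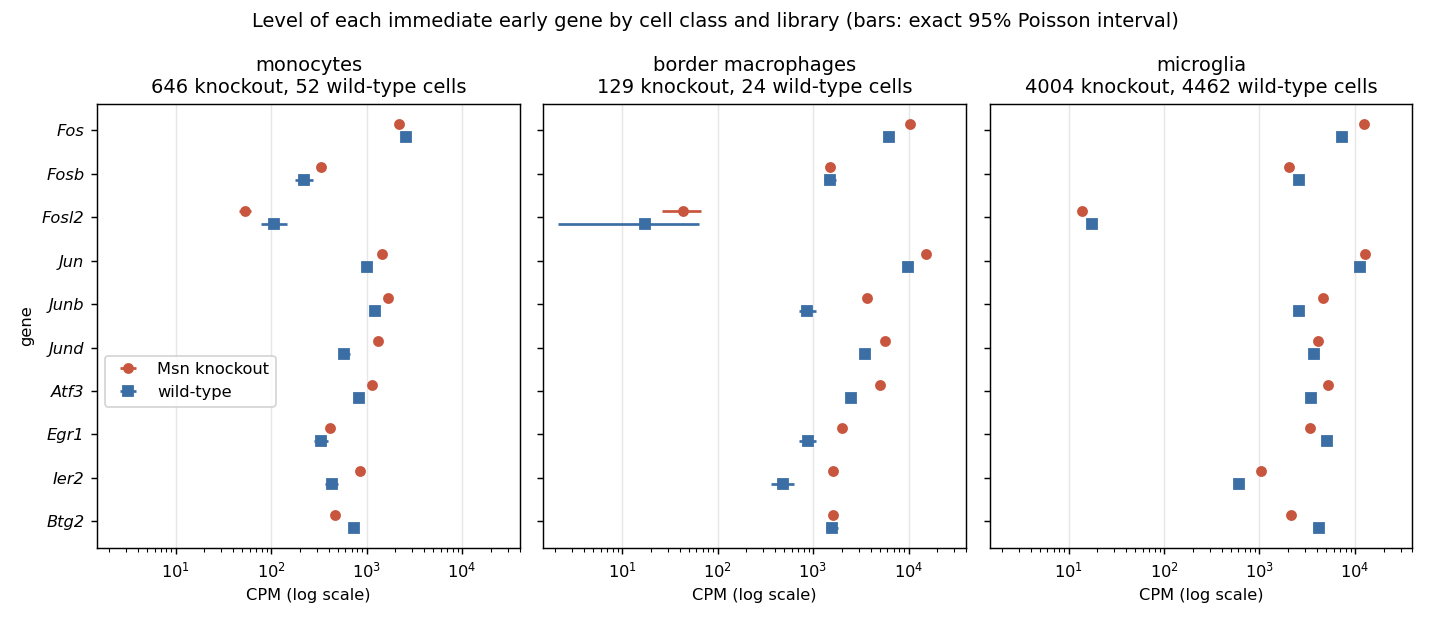
Level of each gene in CPM, on a log axis, in monocytes, border macrophages and microglia of the knockout (circles) and wild-type (squares) libraries, with exact 95% Poisson intervals. In monocytes Jun and Egr1 lie about a decade left of their microglial position, Ier2 lies near its microglial level and Fosl2 lies right of it, while in border macrophages Fos and Jun lie near their microglial levels.

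With UMIs summed over cells, border macrophages held a share of this RNA near that of microglia in the knockout library and a smaller one in the wild-type library. The 10 genes made up 4.67% of UMIs in knockout and 2.75% in wild-type border macrophages. Deep cells weigh more in such a sum. By the median cell, the 10 genes had 36852 CPM in border macrophages and 47209 CPM in microglia of the knockout library, and 24814 against 40292 CPM in the wild-type library. Relative to the microglia of the same library, Fosl2, Jund and Ier2 were higher and Egr1 was lower in knockout border macrophages, against 21.3% and 21.9% of 8451 genes. The Fosl2 call rests on 20 UMIs in knockout border macrophages, and the wild-type ones held 2. After thinning, Fosl2 was found in 2.25% (0.27 to 7.88) of knockout border macrophages and 2.59% of knockout microglia. Without thinning it was found in 13.2% and 8.52%. In wild-type border macrophages none was higher, and Junb, Egr1 and Btg2 were lower, against 28.6% and 29.7% of 9168 genes. On the CPM scale as it stands 2 were higher and 1 lower in the knockout library (background 16.4% and 27.2%), and 0 higher and 4 lower in the wild-type library (21.6% and 37.2%). Egr1 had 1991 CPM in border macrophages and 3361 CPM in microglia of the knockout library, and 882 against 5108 CPM in the wild-type library. Junb had 3633 CPM in border macrophages and 4662 CPM in microglia of the knockout library, and 874 against 2562 CPM in the wild-type library. Microglial markers were less separated here than in monocytes, at a median of 19.6% of their microglial level in knockout and 14.3% in wild-type border macrophages. Fcrls stood at 73.9% in knockout and 63.1% in wild-type border macrophages. The part of microglial RNA in these values was not tested.
The summed CPM of the 10 genes varied more between border macrophages than between microglia, with a 90th over 10th percentile of 16.8 in knockout and 14.7 in wild-type border macrophages. It was 3.60 in knockout and 3.28 in wild-type monocytes. After thinning, 16.9% of 89 knockout and 14.3% of 21 wild-type border macrophages had under 20 UMIs of the 10 genes, against 1.67% and 1.23% of microglia.

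**Figure D4:**
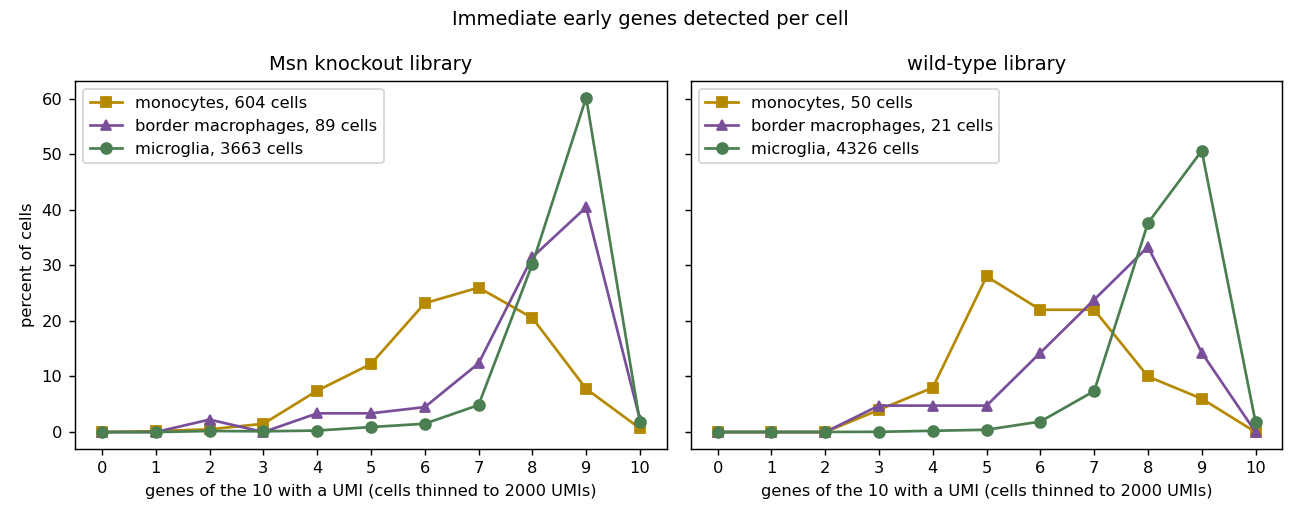
Percent of cells by how many of the 10 genes had a UMI, with each cell thinned to 2000 UMIs, in monocytes, border macrophages and microglia of the knockout (left) and wild-type (right) libraries. Microglia gather at 8 and 9 genes in both libraries, with a median of 9, while monocytes spread around medians of 7 in the knockout and 6 in the wild-type library.

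Fos, Atf3 and Junb had more CPM in Ly6c2 than in Ace monocytes of both libraries. Classical monocytes carry Ly6c2 and patrolling monocytes carry Ace, and the gates gave 113 knockout and 21 wild-type cells of the Ly6c2 kind and 382 and 23 of the Ace kind. Monocytes with UMIs of both Ace and Ly6c2 were counted in neither kind. Fos had 3508 CPM in Ly6c2 and 1632 CPM in Ace monocytes of the knockout library, and 3150.4 against 1199 CPM in the wild-type library. Atf3 had 2017 CPM in Ly6c2 and 745 CPM in Ace monocytes of the knockout library, and 1109 against 372 CPM in the wild-type library. Junb had 2402 CPM in Ly6c2 and 1398 CPM in Ace monocytes of the knockout library, and 1547 against 769 CPM in the wild-type library. The intervals of these 3 log2 ratios lay above 0 in both libraries. Those of Jun also did, at 0.16 (0.07 to 0.26) in the knockout and 0.92 (0.55 to 1.31) in the wild-type library. Egr1 showed no such order, with a log2 ratio of -0.31 (-0.50 to -0.12) in the knockout and 0.10 (-0.49 to 0.71) in the wild-type library.

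Between the libraries, Jund, Ier2, Fosb, Jun, Atf3 and Junb were higher in knockout monocytes and Fosl2 was lower. That is 6 higher and 1 lower of 10, against 19% higher and 19.4% lower of 7296 genes, and 3 higher and 2 lower on the CPM scale as it stands, against 12% and 27.2%. Jund had 1327 CPM in knockout and 582 CPM in wild-type monocytes, a relative log2 ratio of 1.37 (1.18 to 1.58), and it was the gene with the highest ratio. Ier2, at 861 CPM in knockout and 432 CPM in wild-type monocytes, had a ratio of 1.18 (0.95 to 1.42). Fosb had 332 CPM in knockout and 221 CPM in wild-type monocytes, a ratio of 0.77 (0.45 to 1.11), and it lay at -0.04 in microglia. Within Ace monocytes the Fosb ratio was 1.78 (1.02 to 2.65), from 647 knockout and 14 wild-type UMIs. The wild-type level there was 4.50% of the microglial one, where the 6 microglial markers stood at 3.20 to 12.9%, so the ratio is not read as a difference. Within Ly6c2 monocytes the Fosb ratio was 0.11 (-0.30 to 0.55).
Fos had 2162 CPM in knockout and 2578 CPM in wild-type monocytes, a ratio of -0.07 (-0.16 to 0.03), but 0.57 (0.33 to 0.82) within Ace and 0.19 (0.06 to 0.32) within Ly6c2 monocytes. The libraries held the Ace and Ly6c2 kinds in different proportions, given above. Monocytes with both Ace and Ly6c2 are part of the whole class but of neither kind, and their ratio is not given here. The part of either in the Fos ratio of all monocytes was not tested. Fosl2, with 193 knockout and 41 wild-type UMIs, had a ratio of -0.84 (-1.33 to -0.31). It was 0.72 without the 10 cells of each library that held the most Fosl2 UMIs. That setting takes 10 of 52 wild-type but 10 of 646 knockout cells, which tends to raise a ratio by construction. The value of 0.72 is therefore not read as a reversal. Btg2 had 470 CPM in knockout and 730 CPM in wild-type monocytes, a ratio of -0.45 that lay within the rule. The wild-type values of this comparison rest on 52 cells.

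In border macrophages, Junb, Ier2, Egr1, Atf3, Fos and Jund were higher in the knockout library and none was lower. Of 9 measured genes 6 were higher, against 19.4% higher and 23.4% lower of 2923 genes, and 3 lay within 1.5-fold. Fos lost its call when the gates asked for 2 UMIs (0.57), and Jun, within at 0.55, was past the rule in 6 of 16 alternatives (up to 0.96). Of these 6, median-of-ratios scaling and no floor are the same calculation. The median of measured genes was 0.06 here, and on the CPM scale as it stands 7 were higher and 0 lower, against 21.3% and 20.4%. Junb had 3633 CPM in knockout and 874 CPM in wild-type border macrophages, a relative log2 ratio of 1.99 (1.70 to 2.30). Ier2 had 1631 CPM in knockout and 481 CPM in wild-type border macrophages, a ratio of 1.70 (1.31 to 2.12). Egr1 had 1991 CPM in knockout and 882 CPM in wild-type border macrophages, a ratio of 1.11 (0.81 to 1.42), whereas it was -0.32 in microglia. It lay within the rule at 0.47 when the gates asked for 2 UMIs of each marker, and at 0.18 when cells meeting more than 1 gate were assigned by their marker UMIs. Btg2 had 1601 CPM in knockout and 1581 CPM in wild-type border macrophages, a ratio of -0.04 against -0.68 in microglia. Fosl2 was not measured, with 20 knockout and 2 wild-type UMIs. The wild-type values rest on 24 cells. Without the 10 cells of each library with the most Egr1 UMIs, the Egr1 ratio was 3.34. That setting takes 10 of 24 wild-type but 10 of 129 knockout cells, which tends to raise a ratio by construction. It is also among the alternatives that put Jun past the rule.

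Within microglia of a library, cells with more of 1 gene tended to have more of the others. Pearson correlations were taken over cells thinned to 2000 UMIs, on log2 of UMIs plus 1, so that depth was equal, and all cells of a correlation share 1 library. Over the 45 pairs the median r was 0.21 in 3663 knockout and 0.17 in 4326 wild-type microglia. An r of 0.1 or more was reached by 34 pairs in the knockout and 29 in the wild-type library, against 0.0778% and 0.0185% of pairs among all genes at 50 CPM or more. This background was not matched for level, and counting noise keeps r near 0 in scarce genes. Without Fosl2, the genes ran from 604 CPM (Ier2, wild-type) to 12879 CPM (Jun, knockout) in microglia, while Fosl2 lay below the floor of 50 CPM. The part of level in this contrast was not tested. The highest pair was Jun with Jund (0.47) in knockout microglia and Fos with Fosb (0.44) in wild-type microglia. Fos with Atf3 reached 0.47 in the knockout and 0.39 in the wild-type library. The 9 pairs with Fosl2 ran from -0.01 to 0.03 in the knockout and from -0.02 to 0.02 in the wild-type library, at shares of cells too small to show a correlation.
Fosb with Ier2 had the lowest r in both libraries, at -0.06 in the knockout and -0.04 in the wild-type library, and Jund with Atf3 had 0.04 and 0.05. Jun had the highest mean r with the other 9 genes, at 0.32 in knockout and 0.27 in wild-type microglia. Of the 36 pairs without Fosl2, 26 had a larger r in the knockout library, with the widest gap for Junb with Jund, at 0.27 in knockout and 0.11 in wild-type microglia. No share over all gene pairs was taken for this count. Among all genes, pairs at 0.1 or more were also more frequent in the knockout library (0.0778% against 0.0185%). Mean thinned UMIs were 9.05 and 4.99 for Junb and 8.15 and 7.30 for Jund in knockout and wild-type microglia. The part of level in this contrast was not tested.

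**Figure D5:**
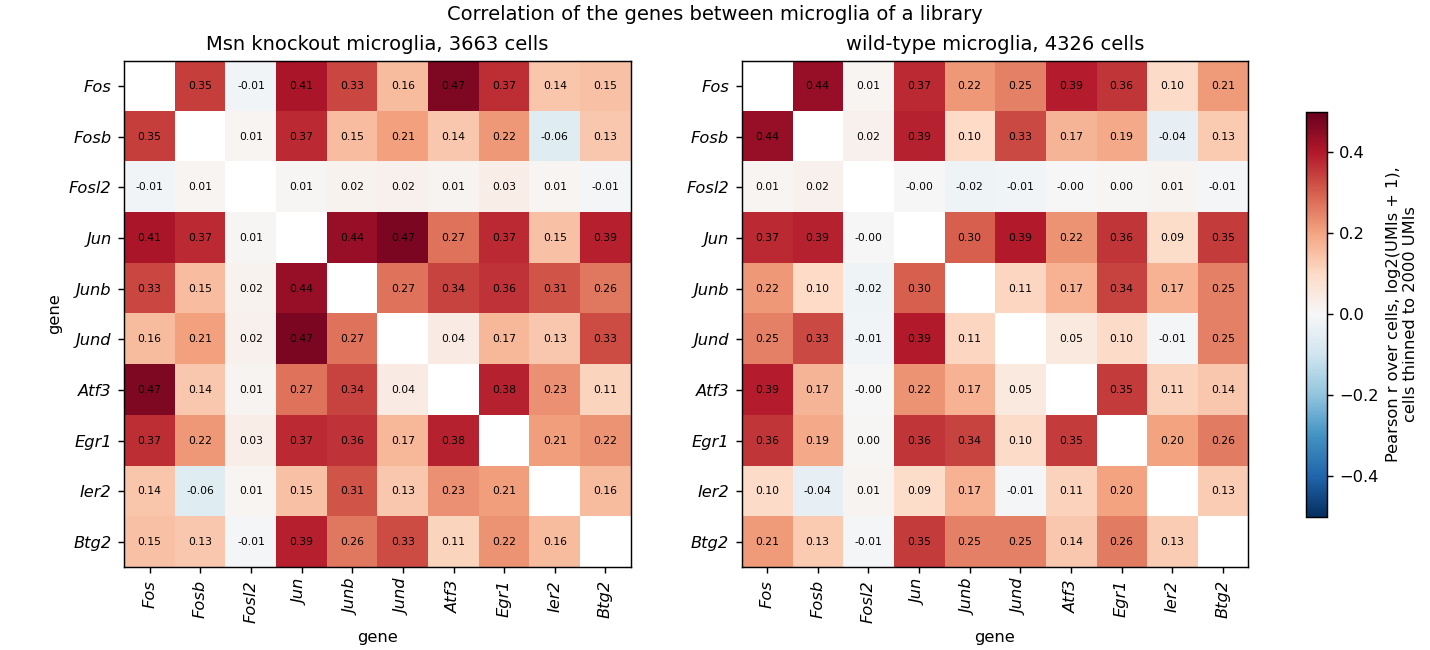
Pearson r over cells for each pair of the 10 genes in knockout (left) and wild-type (right) microglia, on log2 of UMIs plus 1 with cells thinned to 2000 UMIs. Most pairs are above 0, the row of Fosl2 is near 0, and Fosb with Ier2 is the lowest pair in both libraries.

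Genes outside the 10 that varied with them were named from the 20 highest of each library by mean r with the 10. The libraries shared 17 of these 20 genes, among them Dusp1, a phosphatase of MAP kinases, at 0.24 in knockout and 0.24 in wild-type microglia. Zfp36, which destabilises cytokine mRNAs, had 0.24 in knockout and 0.21 in wild-type microglia, and H3f3b, a gene of a variant histone H3, had 0.23 in knockout and 0.17 in wild-type microglia. Klf6, Ier5, Klf2, Rhob, Nfkbia and Jmjd1c ran from 0.14 to 0.21 in knockout and from 0.11 to 0.15 in wild-type microglia. The lowest in each library included Cst3 and Tyrobp, with Cst3 at -0.15 in knockout and -0.06 in wild-type microglia. Over cells, the share of UMIs from the 10 genes moved against the share from ribosomal protein genes, at Spearman's rho of -0.36 in knockout and -0.24 in wild-type microglia. Its rho with total UMIs was 0.17 in knockout and 0.195 in wild-type microglia, and with the mitochondrially encoded share -0.20 in knockout and -0.21 in wild-type microglia. In knockout and wild-type border macrophages, rho was 0.40 and 0.45 with total UMIs and -0.50 and -0.36 with the mitochondrially encoded share. With the ribosomal protein share it was -0.71 and -0.2 there. The part of these measures in the correlations was not tested.
In border macrophages the median r was 0.40 in both libraries, over 89 knockout and 21 wild-type cells, and 39 of 45 knockout and 31 of 36 wild-type pairs reached 0.1, against 18.4% and 30.3% of all gene pairs. In monocytes it was 0.12 over 604 knockout cells, with 26 pairs at 0.1 or more against 1.56% of all pairs, and 0.01 over 50 wild-type cells, with 18 pairs against 24.1%. These shares of all pairs were likewise not matched for level.

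Among other immediate early genes in microglia, more were higher than lower relative to the median of measured genes, while the counts were equal on the CPM scale as it stands. Of 27 measured among 32 listed, 12 were higher, 2 lower and 13 within 1.5-fold, with a median relative log2 ratio of 0.54, against 14.2% higher and 12.4% lower of all measured genes. CPM as they stand gave 6 higher and 6 lower, against 4.28% and 29.7%. The same shares of all genes apply to the lists that follow in microglia. Klf2, a zinc finger factor of quiescent immune cells, had 3518 CPM in knockout and 1373 CPM in wild-type microglia (1.64), and Klf10, induced by TGF-beta, had 96.0 CPM in knockout and 47.6 CPM in wild-type microglia (1.30). The lower genes were Egr3, a relative of Egr1, at 25.6 CPM in knockout and 63.9 CPM in wild-type microglia (-1.04), and Nfkbiz, an atypical regulator of NF-kB, at 236 CPM in knockout and 450.5 CPM in wild-type microglia (-0.65). Egr2 lay at -0.49, within the rule. In monocytes 11 of 26 measured were higher and 3 lower (median 0.47), against 19% and 19.4% of all genes. CPM as they stand gave 8 and 4 there, against 12% and 27.2%. In border macrophages 10 of 23 were higher and 1 lower (median 0.53), against 19.4% and 23.4%. CPM as they stand gave 12 and 1 there, against 21.3% and 20.4%. In microglia, inflammatory and stress genes known from dissociated myeloid cells had 13 higher, 0 lower and 4 within of 17 measured among 18, against 14.2% and 12.4% of all genes, with a median of 0.81, and 8 higher and 0 lower on the CPM scale, against 4.28% and 29.7%. The heat shock genes Hspa1b (2.49) and Hspa1a (2.27) were highest, while the cytokine genes Il1a (0.01) and Ccl2 (-0.08) were lowest.

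For other leucine zipper genes and upstream kinases in microglia, the shares called were near those of all measured genes, 14.2% higher and 12.4% lower. Of 19 measured among 24 other leucine zipper genes, 3 were higher, 3 lower and 13 within 1.5-fold, with a median of 0.09, and 2 higher and 6 lower on the CPM scale. Jdp2, a Jun-binding repressor, had 20.2 CPM in knockout and 8.83 CPM in wild-type microglia (1.48), and Cebpb, a factor of myeloid inflammatory genes, had 474 CPM in knockout and 254 CPM in wild-type microglia (1.19). Creb1, which binds the cyclic AMP response element, stood at -0.64 and Atf6, a factor of the unfolded protein response, at -0.65. Of 24 measured among 26 upstream kinases and factors, 3 were higher, 4 lower and 17 within, with a median of -0.26, and 0 higher and 9 lower on the CPM scale. Mapk3, which encodes the kinase ERK1, stood at 0.77 and Map2k2, its activator, at 0.76, while Map3k5 (-0.84) and Map3k1 (-0.95), kinases upstream of JNK and p38, were lowest. Of the 8 partners of Egr1 and Btg2, Prmt1, a methyltransferase that binds Btg2, was higher (1.09), Cnot1, the scaffold of the CCR4-NOT complex, was lower (-0.68) and 6 lay within, from Tob2 at -0.33 to Cnot8 at 0.23, with a median of -0.05 and 1 higher and 2 lower on the CPM scale.

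Within microglia that carried heat shock RNA, the ratios of Fos and Junb were close to those in the other microglia. Cells with Hspa1a or Hspa1b UMIs after thinning made up 43.2% of knockout and 16.7% of wild-type microglia. The log2 ratio of Fos between knockout and wild-type, on the CPM scale, was 0.79 within such cells and 0.81 in the other microglia, and that of Junb was 0.88 within such cells and 0.86 in the others. The gap was wider for Atf3 (0.56 within and 0.66 in the others), Ier2 (0.95 and 0.87) and Btg2 (-0.86 and -1.04). The part of heat shock RNA in the library ratios was not tested. Cells with both Ccl3 and Ccl4 made up 34.5% of knockout and 40.3% of wild-type microglia. The 10 genes summed to 49342 CPM in such knockout cells and 45629.6 CPM in other knockout microglia, and to 39730.1 CPM in such wild-type cells and 39113 CPM in other wild-type microglia. Cells with at least 2 of Apoe, Lpl, Cst7 and Spp1, genes of disease-associated microglia, numbered 70 in the knockout and 90 in the wild-type library. The 10 genes summed to 40607 CPM in such knockout cells and 47033 CPM in other knockout microglia, and to 34967 CPM in such wild-type cells and 39455.5 CPM in other wild-type microglia.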

How the data were processed

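The deposited files hold raw UMI counts per gene and barcode, 1 matrix for each library, made with Cell Ranger 7.0.0 per the file headers. The labels' protocols give 6.0 instead. GRCm39 was the genome build per the series text, and whether counting used strand is not stated in those sources. The labels describe a filter at 500 genes, and the deposited counts hold barcodes below it. Barcodes were kept here from 500 genes upwards and up to 10% mitochondrially encoded UMIs, 7573 (83.8%) in the knockout and 5577 (95.5%) in the wild-type library. Cells meeting 1 gate with 2 or more UMIs of lymphoid or neutrophil markers, 522 knockout and 514 wild-type cells, were set apart. These need not be lymphocytes or neutrophils. Of such marker UMIs in the microglia kept, Cd79b made up 93.5% in knockout and 99.0% in wild-type cells. The cells set apart had median depths of 11793 and 22169 UMIs, with 4.73% and 4.28% of UMIs from the 10 genes. Gates asked for 1 UMI of each marker. No doublet caller was run, and cells meeting more than 1 gate were left out.

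UMIs were summed per class and library and divided to CPM. A gene was measured at 10 CPM in at least 1 library and 30 UMIs over both. Cells were thinned to 2000 UMIs with a fixed seed for detection and correlation. Intervals are exact 95% Poisson, conditional binomial or Clopper-Pearson intervals for counting error only. There is 1 library per genotype, so no test was made. The 10 genes and the gene lists were chosen with earlier results of these data known. The text names the 10 genes, the 2 highest and 2 lowest measured genes of each list in microglia and the 10 genes of highest mean correlation among those in the top 20 of both libraries, of which 1 is not reported here. Genes named beyond these, Egr2, Cst3 and Tyrobp, and of the microglial markers Olfml3, Gpr34, P2ry13 and Fcrls, were chosen after their values were seen. Promoters and positions came from the GENCODE vM39 annotation, which matched 54749 of the 55357 gene IDs. Alternatives changed the gates, filters, scaling, floor, thinning and depth. The calculations were tested on simulated data and run with Python 3.11.15, numpy 2.4.6, scipy 1.17.1, pandas 2.3.3 and matplotlib 3.10.9.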

Additional observations from a re-analysis of the deposited data

Results flagged for a closer look

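For Fosb and Egr1, ratios of knockout over wild-type, relative to the median of measured genes, lay on opposite sides of 0 in a pair of classes, with both counting intervals clear of 0 and a gap of at least 1.5-fold. Other pairs of opposite sign, such as Fos at 1.05 in microglia and -0.07 in monocytes, had an interval that spans 0. Each rests on 1 library per genotype and the difference between classes was not tested. Fosb had a relative log2 ratio of -0.038 in microglia and 0.77 in monocytes, where the wild-type value comes from 84 UMIs. The sign of the microglial ratio depended on the setting, from -0.32 to 0.09 over the 17 alternatives. It was above 0 in 3 of 5 bands of depth, up to 0.28. Within Ly6c2 monocytes the Fosb ratio was 0.11 (-0.30 to 0.55). Within Ace monocytes it was 1.78 from 14 wild-type UMIs, at a wild-type level within the range of microglial markers. Egr1 had -0.32 in microglia and 0.49 in monocytes, and the microglial value was past 1.5-fold on the CPM scale (-0.60). The monocyte value was past it in 6 of 16 alternatives (up to 1.07), of which median-of-ratios scaling and no floor are the same calculation. The wild-type monocyte level, as a share of the microglial one, lies within the range of microglial markers in monocytes. Egr1 had -0.32 in microglia and 1.11 in border macrophages of 24 wild-type cells.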

How the results depend on the processing

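Fos (relative log2 0.77 to 1.18), Junb (0.86 to 1.28) and Ier2 (0.79 to 1.20) stayed higher in knockout microglia under 17 of 17 alternatives. Atf3 lost its call on the CPM scale, and Btg2 (-0.97 to -0.55) lost it under median-of-ratios scaling and with no floor. As computed here, these settings centre on the same genes and give identical ratios. The totals of 17 and 16 alternatives therefore hold the same calculation under both names. In monocytes Jund, Ier2 and Fosb, and in border macrophages Junb, Ier2, Atf3 and Jund, kept their calls under 16 of 16. The count of genes lower in microglia, 1, was 2 on the CPM scale and 0 under median-of-ratios scaling and with no floor, where Jun passed the rule and the 4 higher became 5. In monocytes the 6 higher became 3 on the CPM scale, Junb and Atf3 also lost their calls after thinning and Jun lost its call in cells of 4000 to 10000 UMIs. The 1 lower became 2 on the CPM scale, after thinning to 2000 UMIs and in cells of 4000 to 10000 UMIs, and 0 without the 10 cells with the most UMIs of the gene, where Fosl2 stood at 0.72. Leaving out 10 cells takes a larger part of the small wild-type classes, which tends to raise a ratio by construction. This setting is counted among the 16 alternatives here and above. Relative to microglia, the 1 gene lower in knockout border macrophages became 0 after thinning, and the 0 higher in wild-type border macrophages became 1 with gates of 2 UMIs. The 4 genes with a larger detection share in knockout microglia after thinning, Fos, Junb, Atf3 and Ier2, became 2 without thinning. No share over all genes was taken for this count. The thinned shares of Fos (99.2% and 98.7%) and Junb (98.6% and 96.5%) in knockout and wild-type microglia are near the most a share can be. Beyond settings whose construction shows it (fewer cells, another scaling), the cause was not tested. No paired analysis was possible because each genotype has 1 library and the labels give no replicate numbers. Wild-type monocytes (52 cells) and border macrophages (24 cells) limit the precision, and the intervals leave out variation between animals.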

Other observations

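Cells outside the classes also carried this RNA. Cells meeting both the microglial and the border macrophage gate, 535 in the knockout and 185 in the wild-type library, had 4.64% and 4.19% of their UMIs from the 10 genes, at median depths of 13587 and 21462 UMIs. Cells meeting the microglial and monocyte gates, 499 knockout and 103 wild-type cells, had 3.88% in the knockout and 3.89% in the wild-type library. Cells meeting no gate, 1040 knockout and 222 wild-type cells at median depths of 1001 and 1283.5 UMIs, had 3.03% in the knockout and 2.99% in the wild-type library. Among these, Junb had 4059 CPM in knockout and 1979 CPM in wild-type cells, Fos had 4009.7 CPM in knockout and 3693 CPM in wild-type cells, and Btg2 had 1630.5 CPM in knockout and 3340.3 CPM in wild-type cells.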
